A study of Mus musculus with 15 samples.

Results

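The 9 genes described here encode enzymes of the citric acid cycle other than succinate dehydrogenase: Cs, Idh2, Idh3a, Idh3b, Idh3g, Ogdh, Sucla2, Fh1 and Mdh2. They were chosen by gene symbol, and all 9 were found once each among the 20406 genes of the deposited table and passed the filter on low counts. RNA was sequenced from the plantaris, a fast calf muscle, of adult male HSA-GFP mice, with 15 libraries in 5 groups of 3. All groups carried the same transgene pair, in which the human skeletal actin promoter drives a tetracycline-controlled transactivator that switches on a green fluorescent histone in muscle fibre nuclei. The 6M_PoW mice ran on a progressively weighted wheel (PoWeR) for 8 weeks and were sampled at 6 months, the 6M_UT mice were their untrained controls, the 9M_PoW+DT mice trained for 8 weeks, were detrained for 12 weeks and were sampled at 9 months, and the 9M_UT mice were untrained at that age. The 6M_POW_LD group held 3 more 6-month libraries that are titled as trained replicates 4 to 6 and carry LD identifiers, a code that no label explains. For 9 libraries the title and the treatment field disagree: the field calls the LD libraries sedentary, the 9M_PoW+DT libraries sedentary and the 9M_UT libraries detrained, so every direction below rests on the titles. Nothing in the labels says whether replicates were separate mice, and p-values then measure only the spread between these libraries.

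The citric acid cycle runs in the mitochondrial matrix, where acetyl groups from pyruvate, fatty acids and ketone bodies are oxidised to carbon dioxide and the electrons are passed to the respiratory chain. Muscle fibres rich in mitochondria carry more of these enzymes, and citrate synthase activity is a common index of mitochondrial content in muscle, which endurance training is known to raise. The cycle's enzymes act as single proteins, such as citrate synthase and malate dehydrogenase, or as assemblies of different subunits, such as the NAD-dependent isocitrate dehydrogenase made of the Idh3a, Idh3b and Idh3g products.

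Of the 9 genes, 8 had an entry in the RefSeq promoter table (GRCm38.p6), all but Idh3a, and 4 windows are shown because the results turn on those genes or on a motif match in them: Cs is the gene that differed between groups, Fh1 and Idh3g followed the other members most closely from library to library, and Sucla2 held the NRF1 match. Each window holds the 250 bases before a listed RefSeq start and the 50 bases from that start on. For Sucla2 that start, 73552786, lies inside the gene, whose deposited start is 73525319. The capitals mark matches on either strand to the letters GGGCGG (Sp1), CCGGAAG (the ETS family, which includes GABP) or to the NRF1 consensus. AAGGTCA, the core letters bound by oestrogen-related receptors, was searched too, and lay in none of these 4 windows. The windows are chr10:128337477-128337776 on the plus strand for Cs, chr1:175625586-175625885 on the minus strand for Fh1, chrX:73786848-73787147 on the minus strand for Idh3g and chr14:73552536-73552835 on the plus strand for Sucla2.
Cs: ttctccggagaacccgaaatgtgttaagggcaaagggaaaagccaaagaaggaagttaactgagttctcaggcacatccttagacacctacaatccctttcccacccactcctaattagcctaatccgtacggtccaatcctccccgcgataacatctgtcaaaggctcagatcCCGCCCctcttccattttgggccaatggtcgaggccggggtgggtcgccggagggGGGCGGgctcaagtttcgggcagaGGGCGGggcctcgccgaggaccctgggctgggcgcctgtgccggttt
Fh1: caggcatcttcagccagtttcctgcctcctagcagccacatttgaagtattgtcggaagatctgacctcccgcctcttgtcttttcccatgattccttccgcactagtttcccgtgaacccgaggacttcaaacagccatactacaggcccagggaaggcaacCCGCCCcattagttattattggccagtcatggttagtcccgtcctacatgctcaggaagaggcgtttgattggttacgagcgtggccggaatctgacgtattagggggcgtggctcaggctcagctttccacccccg
Idh3g: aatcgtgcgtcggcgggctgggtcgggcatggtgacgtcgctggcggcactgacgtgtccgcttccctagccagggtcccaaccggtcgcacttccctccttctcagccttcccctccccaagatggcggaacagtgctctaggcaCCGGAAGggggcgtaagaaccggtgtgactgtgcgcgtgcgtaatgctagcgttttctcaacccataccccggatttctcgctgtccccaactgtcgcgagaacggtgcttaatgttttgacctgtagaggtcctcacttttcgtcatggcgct
Sucla2: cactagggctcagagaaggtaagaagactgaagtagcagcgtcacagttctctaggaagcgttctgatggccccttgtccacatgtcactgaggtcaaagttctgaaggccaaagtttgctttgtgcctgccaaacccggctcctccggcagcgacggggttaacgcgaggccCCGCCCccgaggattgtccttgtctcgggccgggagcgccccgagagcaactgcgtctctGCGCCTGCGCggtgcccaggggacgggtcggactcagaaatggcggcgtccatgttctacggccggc

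The GC-box letters of Sp1 were the most frequent match, with 3 in the Cs window, 2 each in Idh2 and Mdh2, and 1 each in Fh1, Sucla2 and 4 of the 6 Ogdh starts. Some Ogdh windows overlap, and the same Sp1 site was counted in more than 1 of them. The ETS letters were found in Idh3b and Idh3g, the NRF1 consensus in Sucla2, and the oestrogen-related receptor letters at 1 Ogdh start. Among all 32851 windows of the table, 35.7% held the Sp1 letters, 8.86% the ETS letters, 4.6% the NRF1 consensus and 4.72% the receptor letters. Counted by gene, over 27025 genes, the shares were 38.2%, 9.93%, 5.19% and 5.38% in the same order. Within a window, no matches overlapped each other. The matches describe letters only, and no binding was measured.

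The libraries held 18865037 to 27688826 counts each. Skeletal muscle fibre markers (Acta1, Ckm, Myh4, Myh1, Myh2 and Mb) summed to 85200 to 113920 CPM (counts per 1000000, on library totals adjusted for composition), while the 4 heart markers reached at most 3.88 CPM for Myh6, 1.97 CPM for Tnnt2, 0.591 CPM for Nppa and 0.148 CPM for Tnni3, the last 2 at 0 in some libraries. Mitochondrial genome transcripts took 16.0% to 22.5% of the counts. The library 9M_PoW+DT replicate 3 stood apart, with the smallest share of mitochondrial transcripts and with 197 CPM of white adipocyte markers, against 88.0 to 139 CPM in the other 14 libraries. The library 6M_POW_LD replicate 6 stood apart in red cell markers, at 3112 CPM, against 326 to 1040 CPM in the other 14. In bulk muscle, fewer cells of a type and less RNA per cell cannot be told apart.

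Each member was deeply counted, from 3349 counts for Idh2 to 26644 for Cs in its lowest and highest library, and 8 of the 9 varied little. Across all 15 libraries the highest level was 1.13 times the lowest for Idh3a, 1.17 times for Idh3g and Sucla2, 1.19 times for Idh3b, 1.20 times for Fh1, 1.25 times for Mdh2, 1.28 times for Cs and 1.29 times for Ogdh. Idh2 was the exception at 2.07 times. The within-group SD on the log2 CPM scale was 0.052 to 0.085 for the other 8 genes and 0.228 for Idh2. Among tested genes of high average level, these 8 lay at percentiles 4.46 (Idh3b) to 33.3 (Ogdh) of this SD, and Idh2 at 88.7. Among all genes tested Idh2 lay at percentile 51.1.

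**Figure D1:**
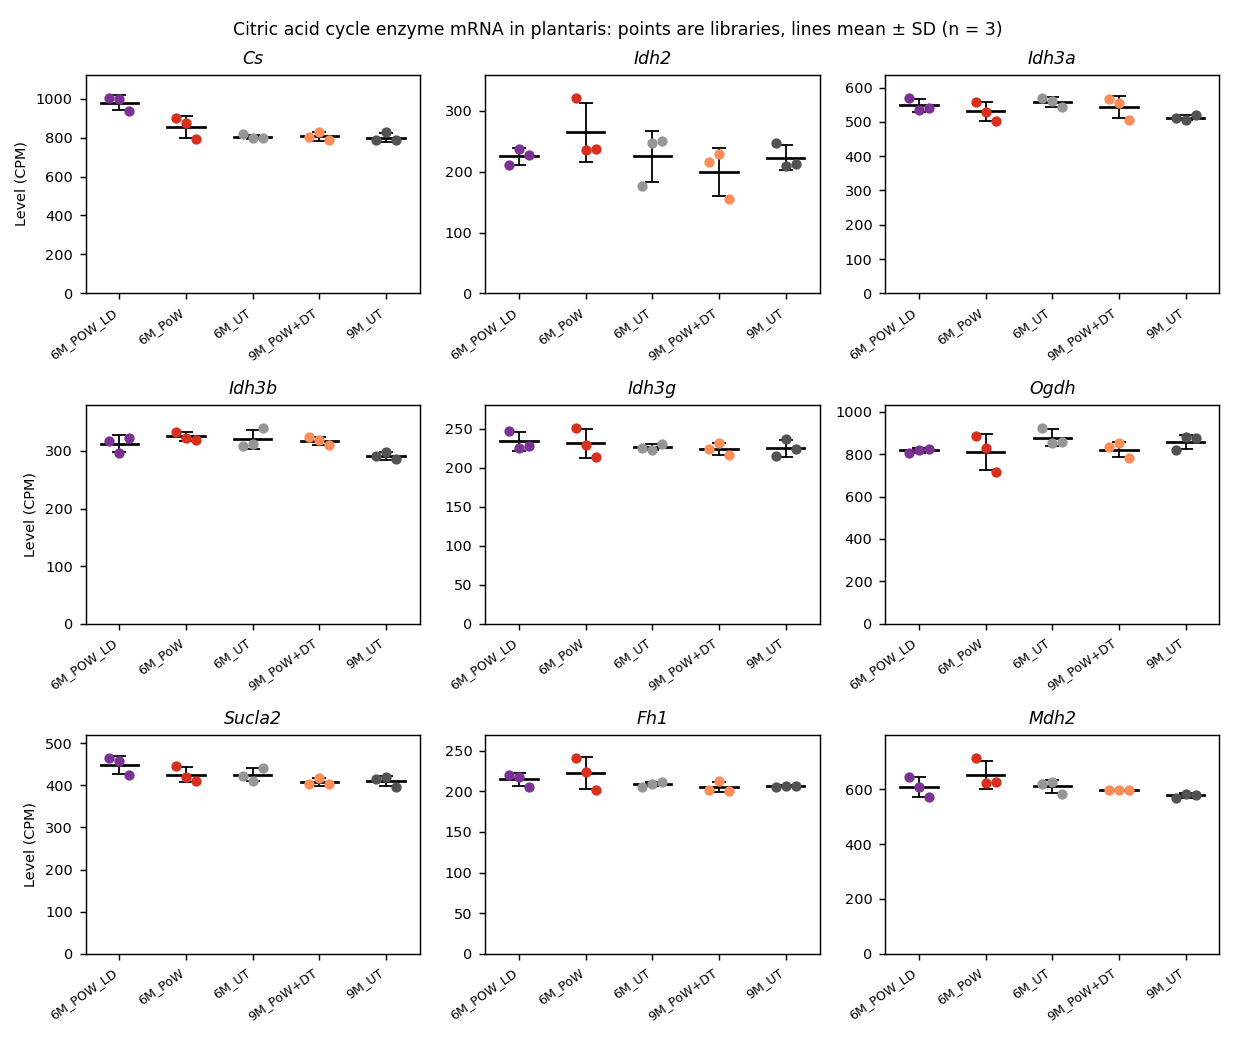
Level in CPM of each of the 9 enzyme genes (y axis, from 0) in the 3 libraries of each group (points), with the group mean and SD as lines. Cs in 6M_POW_LD, at 934 to 1003 CPM, lies above every other library, and Idh2 shows the widest spread within groups.

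Per length, Mdh2 was the most abundant of the members and Fh1 the least. Dividing the mean CPM by the merged exon length of GENCODE M21 gave 171 CPM per kilobase for Mdh2, 153 for Ogdh, 147 for Cs, 106 for Sucla2 and Idh3a, 91.6 for Idh3b, 87.8 for Idh2, 84.5 for Idh3g and 62.3 for Fh1. With the length of the principal transcript instead, Mdh2 stayed highest at 418 CPM per kilobase and Fh1 lowest at 80.2, while Ogdh, at 203, stood below Cs at 290.0 and Idh3a at 224, so the order between these ends depends on the length used. No source used here names the annotation behind the counts, and every member's start and end in the deposited table matched GENCODE M21 on mm10.

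The first question was whether mRNAs of the cycle moved with weighted wheel running, from 6M_PoW and 6M_UT muscle. None of the 9 genes did so detectably. In edgeR 0 of the 9 were called at an adjusted p under 0.05, where 0% of the 14919 genes tested were called, and 0 of the 9 passed an unadjusted p under 0.05, which 9.75% of all genes did. DESeq2 and limma-voom called 0 of the 9 as well. The median log2 fold change of the 9 was 0.032, beside 0.0013 over all genes tested, and 7 of the 9 lay above 0 (50.2% of all genes did). The 6M_PoW and 6M_UT libraries overlapped for all 9 genes, whereas 7.89% of all genes lay wholly above and 8.28% wholly below in 6M_PoW. Fibro-adipogenic progenitor markers summed to 327 to 390 CPM in 6M_PoW and 265 to 291 CPM in 6M_UT libraries, endothelial markers to 287 to 321 CPM in 6M_PoW and 225 to 268 CPM in 6M_UT libraries, and macrophage markers to 45.2 to 64.0 CPM in 6M_PoW and 33.0 to 34.3 CPM in 6M_UT libraries; the part of this in the member values was not tested.

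Citrate synthase (Cs, chromosome 10, 128337734 to 128362479) joins acetyl-CoA to oxaloacetate, the first step of the cycle. Its level was 899.5, 874 and 790.4 CPM in 6M_PoW libraries and 816, 798 and 799 CPM in 6M_UT libraries. A pair of trained libraries stood above all untrained ones and the last below them, so the groups overlapped. The log2 fold change was 0.09 ± 0.06 (SE), with a 95% interval of -0.05 to 0.22 (edgeR adjusted p = 0.701), or -3.40% to 16.9% as a percent change.

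The mitochondrial NADP-dependent isocitrate dehydrogenase Idh2 (chromosome 7, 80094846 to 80115392), which makes NADPH from isocitrate, had 321, 235 and 238 CPM in 6M_PoW libraries and 177, 247 and 251 CPM in 6M_UT libraries. One trained library was far above the others and one untrained library far below. Its log2 fold change of 0.23 ± 0.18 was the largest of the 9 and the least certain, with a 95% interval of -0.17 to 0.64 (edgeR adjusted p = 0.724).

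The NAD-dependent enzyme takes the main oxidative route from isocitrate to 2-oxoglutarate, with Idh3a (chromosome 9, 54586334 to 54604661) as the catalytic subunit and Idh3b (chromosome 2, 130279309 to 130284547) and Idh3g (chromosome X, 73778963 to 73786897) as regulatory ones. Idh3a had 559, 529 and 504 CPM in 6M_PoW libraries, against 568, 562 and 542 CPM in 6M_UT libraries. Idh3b had 334, 323 and 319.6 CPM in 6M_PoW libraries, against 309, 312 and 339.6 CPM in 6M_UT libraries. Idh3g had 251, 229 and 214 CPM in 6M_PoW libraries, against 226, 223 and 231 CPM in 6M_UT libraries. Trained and untrained values were interleaved for each subunit. The log2 fold changes were -0.07 ± 0.07 for Idh3a, 0.02 ± 0.06 for Idh3b and 0.03 ± 0.07 for Idh3g, and the widest interval of the 3 was -7.89% to 13.5%, for Idh3g.

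Ogdh (chromosome 11, 6291633 to 6356642) encodes the first subunit of the 2-oxoglutarate dehydrogenase complex, a rate-controlling step. It had 884, 829 and 715 CPM in 6M_PoW libraries and 923, 854 and 856 CPM in 6M_UT libraries. Only the highest trained library entered the untrained range, and the log2 fold change of -0.12 ± 0.08 had a 95% interval of -0.28 to 0.05 (edgeR adjusted p = 0.665). Sucla2 (chromosome 14, 73525319 to 73596142), the ADP-forming subunit of succinyl-CoA synthetase, had 446, 419 and 411 CPM in 6M_PoW libraries and 423, 411 and 441 CPM in 6M_UT libraries, and its log2 fold change of 0.0019 ± 0.062 had an interval of -8.66% to 9.76%.

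Fumarate hydratase, encoded by Fh1 (chromosome 1, 175600374 to 175625635), had 241, 224 and 202 CPM in 6M_PoW libraries and 206, 209.5 and 211 CPM in 6M_UT libraries. Mitochondrial malate dehydrogenase, encoded by Mdh2 (chromosome 5, 135778480 to 135790398), closes the cycle by remaking oxaloacetate, and it had 712, 622 and 625 CPM in 6M_PoW libraries and 619, 628 and 583 CPM in 6M_UT libraries. For Fh1 the trained libraries lay on both sides of the untrained range, and for Mdh2 the highest library was trained and the others lay inside that range. The log2 fold changes were 0.09 ± 0.07 for Fh1 and 0.10 ± 0.07 for Mdh2 (edgeR adjusted p = 0.720 and 0.671). Fh1 overlaps Kmo by 5255 bases on the opposite strand, and no source used here says whether strand was used in counting, so reads in that stretch cannot be assigned with certainty.

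The members moved together from one trained library to the next. The 6M_PoW replicate 1 library was the highest of its group for all 9 members, where 32.5% of all genes tested had their highest value there, and 6M_PoW replicate 3 was the lowest for 7 of the 9, beside 36.0% of all genes. The summed level of the 9 was 4647, 4284 and 4019 CPM in the 6M_PoW libraries and 4266, 4243 and 4255 CPM in the 6M_UT libraries. The untrained sums thus lay within the trained range. The replicate 1 library also held the most slow fibre marker RNA of its group, 290.3 CPM against 161 and 163 CPM, and its share of mitochondrial genome transcripts was 20.9%, between 19.8% and 21.1% in the other two; the part of either in the member levels was not tested. Without it the training median was 0.0060, and without replicate 3 it was 0.091.

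**Figure D2:**
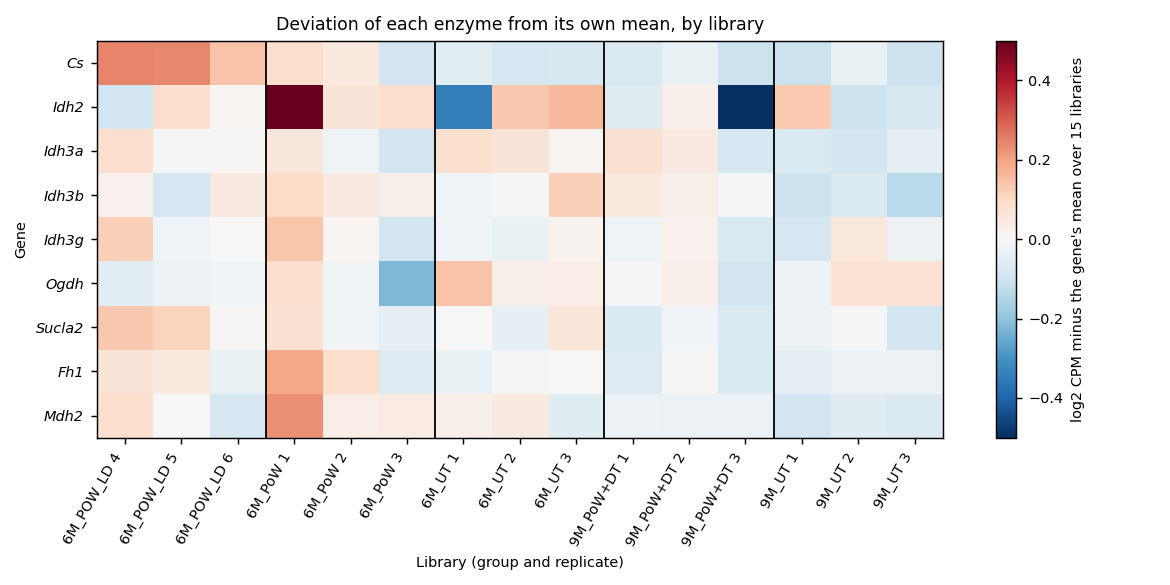
Deviation of each gene's log2 CPM from its own mean over the 15 libraries (colour, red higher and blue lower), with genes as rows and libraries as columns grouped by condition. All 9 genes are above their mean in 6M_PoW replicate 1 and all 9 are below it in 9M_PoW+DT replicate 3.

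At 9 months the question was whether cycle mRNAs still differed 12 weeks after running had stopped. Again no member was called: edgeR called 0 of the 9, beside 0.0201% of 14919 genes, 0 of the 9 passed an unadjusted p under 0.05 (6.52% of all genes did), and DESeq2 and limma-voom called 0. The median log2 fold change was -0.0050 for the 9 and 0.0048 for all genes, with 4 of the 9 above 0.

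Of the 9 genes, 2 had detrained libraries that all lay above the untrained ones, and 6.19% of all genes did so. Idh3b had 324, 319 and 311 CPM in 9M_PoW+DT libraries and 291, 298 and 285 CPM in 9M_UT libraries. Mdh2 had 598, 596 and 596 CPM in 9M_PoW+DT libraries and 569, 584 and 579 CPM in 9M_UT libraries. The log2 fold change was 0.13 ± 0.06 for Idh3b, the member nearest to passing, with a 95% interval of -0.0054 to 0.26 (edgeR adjusted p = 0.759), and 0.05 ± 0.07 for Mdh2 (edgeR adjusted p = 0.920).

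The other 7 members overlapped between detrained and untrained muscle. Cs had 804, 827 and 785 CPM in 9M_PoW+DT libraries and 786, 827 and 787 CPM in 9M_UT libraries, with a log2 fold change of 0.01 ± 0.06 and an interval of -8.40% to 10.8%. Idh2 had 216, 228 and 155 CPM in 9M_PoW+DT libraries and 246, 209 and 212 CPM in 9M_UT libraries, so its log2 fold change of -0.16 ± 0.18 drew on 1 low detrained library. Ogdh had 832, 851 and 783 CPM in 9M_PoW+DT libraries and 821, 879 and 878 CPM in 9M_UT libraries.

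Idh3a had 566, 554 and 506 CPM in 9M_PoW+DT libraries and 512, 505 and 521 CPM in 9M_UT libraries, with replicates 1 and 2 of the detrained group above every untrained library and a log2 fold change of 0.08 ± 0.07. Idh3g had 225, 232 and 216 CPM in detrained and 215, 237 and 224 CPM in untrained libraries. Sucla2 had 404, 418 and 402 CPM in detrained and 414, 419 and 396 CPM in untrained libraries, and Fh1 had 202, 212 and 201 CPM in detrained and 205, 207 and 207 CPM in untrained libraries. The detrained library of replicate 3, which held the most adipocyte marker RNA, was the lowest of its group for 8 of the 9 members, where 37.3% of all genes were lowest there. Its summed level was 3955 CPM, against 4170 and 4238 CPM in replicates 1 and 2; the part of adipocyte RNA in this was not tested. Without it the detraining median was 0.018.

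When the effect of training was subtracted from that of detraining in 1 fit, edgeR called 0 of the 9 members (0.0268% of all genes were called; 0 of the 9 and 9.48% of all genes had an unadjusted p under 0.05; DESeq2 and limma-voom called 0 of the 9). The values ran from -0.39 ± 0.26 for Idh2 to 0.15 ± 0.09 for Idh3a on the log2 scale (edgeR adjusted p = 0.681 and 0.642). For Idh2 the 95% interval was -0.96 to 0.18, and for Sucla2, at -0.0068 ± 0.088, it was -0.19 to 0.18.

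Between untrained mice, none of the 9 members lay above 0 at 9 months relative to 6 months, where 49.0% of all genes did, with a median log2 fold change of -0.031 (median of all genes -0.0053). Of these, Cs, Idh2, Idh3g and Ogdh lay above 0 under at least 1 alternative, at most at 0.071 for Idh2 without 6M_UT replicate 3. The median was -0.055 without 6M_UT replicate 1, -0.050 without 6M_UT replicate 2, -0.060 without 9M_UT replicate 1 and -0.047 without 9M_UT replicate 2. None was called by edgeR (0.0134% of all genes were), DESeq2 or limma-voom, and 1 passed an unadjusted p under 0.05, which 6.72% of all genes did. That gene was Idh3b, at 291, 298 and 285 CPM in 9M_UT libraries and 309, 312 and 339.6 CPM in 6M_UT libraries, with a log2 fold change of -0.14 ± 0.06 (edgeR adjusted p = 0.724). Idh3a, at 512, 505 and 521 CPM in 9M_UT and 568, 562 and 542 CPM in 6M_UT libraries, was the other member whose groups did not overlap (2 of 9 lower, beside 6.47% of all genes), at -0.12 ± 0.07 (edgeR adjusted p = 0.783). Library identifiers also changed with age, so age and library series cannot be told apart.

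Detrained mice at 9 months were set beside trained mice at 6 months, a comparison in which detraining, age and library series cannot be told apart. In this comparison 7 of the 9 members lay below 0, with a median of -0.059 that was -0.024 without 6M_PoW replicate 1 and -0.10 without 6M_PoW replicate 3, and edgeR called 0 of the 9, where 0.295% of all genes were called. DESeq2 and limma-voom called none of the 9, and 1 passed an unadjusted p under 0.05, beside 12.7% of all genes. It was Idh2, with 216, 228 and 155 CPM in 9M_PoW+DT and 321, 235 and 238 CPM in 6M_PoW libraries, at -0.41 ± 0.18 (edgeR adjusted p = 0.390). All detrained libraries lay below all trained ones for Idh2 and for Mdh2, and 9.67% of all genes showed this.

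**Figure D3:**
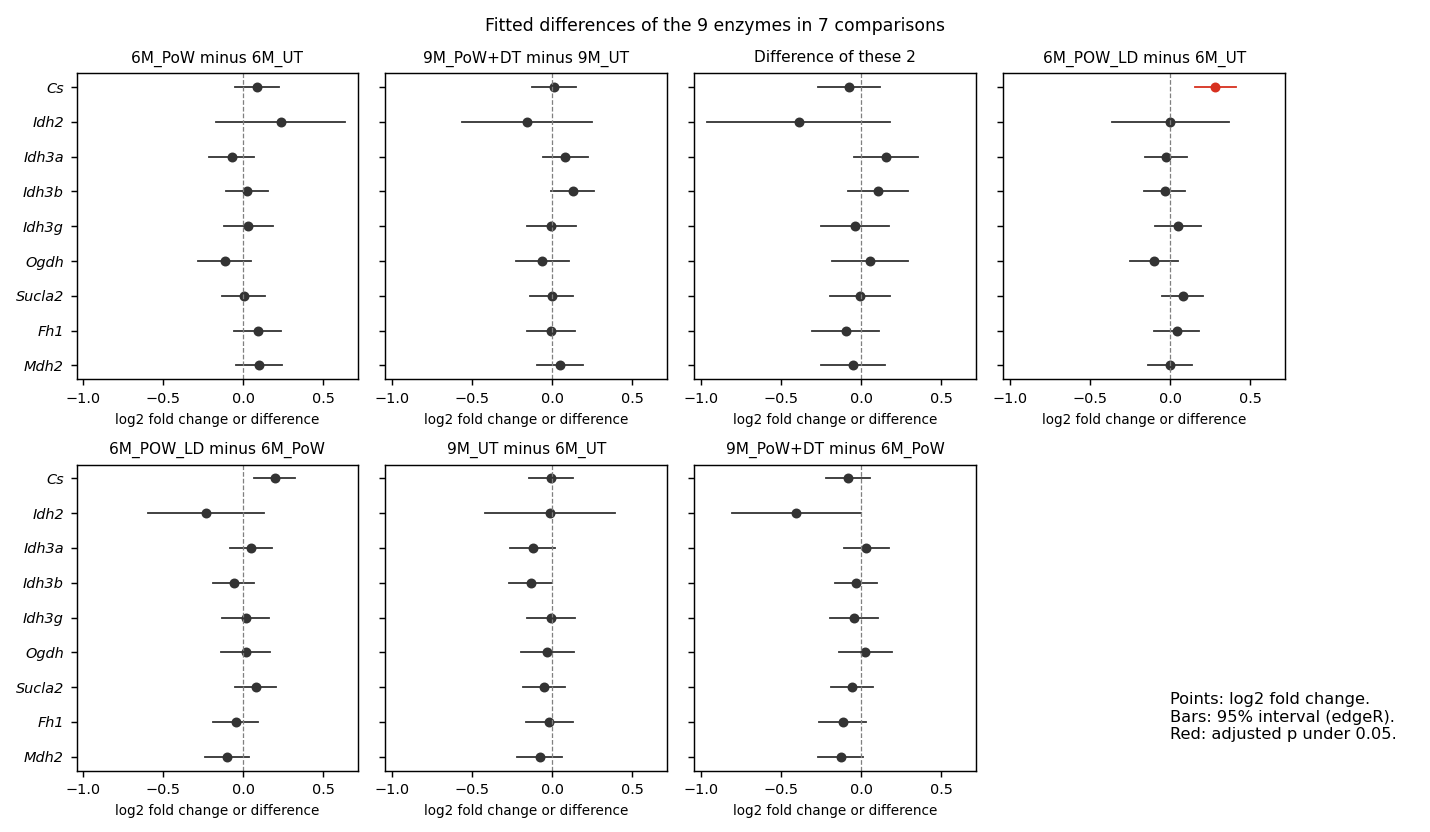
Log2 fold change (points) with its 95% interval from edgeR (bars) for each gene in the comparisons named above each panel, and the difference of the detraining and training effects. Red marks an adjusted p under 0.05, reached by Cs in 6M_POW_LD against 6M_UT; Idh2 has the widest interval in every panel.

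The LD libraries gave the 1 call among the members. Their identifiers differ from those of 6M_PoW and 6M_UT libraries, so group and library series cannot be told apart in the LD comparisons. Cs had 1003, 998 and 934 CPM in 6M_POW_LD libraries, 899.5, 874 and 790.4 CPM in 6M_PoW libraries and 816, 798 and 799 CPM in 6M_UT libraries. Every LD library lay above every other library of the series. Against 6M_UT the log2 fold change was 0.28 ± 0.06, or 21.6% higher with an interval of 11.1% to 33.2% (edgeR adjusted p = 0.0135). Among 15181 genes tested 4.99% were called in either direction and 2.15% higher, 20% had an unadjusted p under 0.05 in either direction, which Cs alone of the members had, and 12.6% had all LD libraries above all 6M_UT libraries. With 1 of 9 called, nothing is read about the members as a set. The call ended without 6M_POW_LD replicate 4 (log2 fold change 0.26, edgeR adjusted p = 0.0579) or replicate 5 (0.27, adjusted p = 0.0613). It held without replicate 6, the library rich in red cell markers (0.31, adjusted p = 0.0196). DESeq2 and limma-voom also called Cs and no other member.

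Against 6M_PoW, Cs missed the threshold at a log2 fold change of 0.20 ± 0.06 in 6M_POW_LD (edgeR adjusted p = 0.113), although all LD libraries lay above all 6M_PoW ones, as for 10.7% of all genes. There edgeR, DESeq2 and limma-voom each called 0 of the 9, beside 2.4% of all genes in edgeR, and Cs alone passed an unadjusted p under 0.05, which 14.3% of all genes did. Cs made up 21.8% to 22.7% of the summed level of the 9 members in 6M_POW_LD libraries, 19.4% to 20.4% in 6M_PoW libraries and 18.8% to 19.1% in 6M_UT libraries. Its share was thus highest in the LD libraries, with no overlap with any other group. In 9M_UT libraries it was 19.2% to 19.9% and in 9M_PoW+DT libraries 19.3% to 19.8%, both overlapping 6M_PoW. The Cs shares of 6M_PoW and 6M_UT did not overlap, although the Cs levels in CPM did. Between these groups the shares of Ogdh, Idh3a and Fh1 did not overlap either. Those of Idh2, Idh3b, Idh3g, Sucla2 and Mdh2 did. The 9 shares of a library add up to its whole sum, so they depend on each other. No background over all genes was worked out for this measure, and nothing is read from these separations.

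The other 8 members did not follow Cs in the LD libraries. Their log2 fold changes against 6M_UT ran from -0.10 ± 0.07 for Ogdh to 0.08 ± 0.06 for Sucla2 (edgeR adjusted p = 0.471 and 0.517). Ogdh was the 1 member with all 6M_POW_LD libraries, at 806, 822 and 825 CPM, below all 6M_UT libraries, at 923, 854 and 856 CPM, as 12.7% of all genes were. Sucla2 had 464, 456 and 425 CPM in 6M_POW_LD libraries and 423, 411 and 441 CPM in 6M_UT libraries. Idh2, at 210.2, 238 and 227 CPM in 6M_POW_LD and 177, 247 and 251 CPM in 6M_UT, had equal group means of 225 CPM.

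Idh3a had 569, 534 and 540.4 CPM in 6M_POW_LD libraries, Idh3b had 318, 296 and 323 CPM, and Idh3g had 248, 225 and 228 CPM. Fh1 had 221, 218 and 206 CPM, and Mdh2 had 644, 608 and 573 CPM. Each of these 5 overlapped its 6M_UT range. The LD libraries differed from 6M_UT in other ways too. All 4 of the fibro-adipogenic progenitor markers were called higher, beside 2.15% of all genes tested. So were 1 of 5 macrophage markers and 2 of 6 muscle fibre markers. Of the muscle fibre markers 5 of 6 lay above 0, and Myh4 lay below 0, at -0.15 ± 0.21 on the log2 scale. The muscle fibre marker sums were 95652 to 104950 CPM in 6M_POW_LD and 86720 to 99885 CPM in 6M_UT libraries, and those of the progenitor markers were 342 to 429 CPM and 265 to 291 CPM. Their part in the Cs result was not tested.

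Idh2 moved with slow fibre markers from library to library. The 2 libraries with the lowest Idh2, 9M_PoW+DT replicate 3 at 155 CPM and 6M_UT replicate 1 at 177 CPM, were also the 2 with the least of the summed slow markers Myh7, Tnnt1, Tnni1, Tnnc1, Myl2, Myl3 and Atp2a2, at 86.5 and 84.0 CPM, where the other 13 held 135 to 647 CPM. Over the 15 libraries the log2 levels correlated with Pearson's r = 0.62 and Spearman's rho = 0.59 (permutation p = 0.0115 and 0.0246, two-sided), and neither passed when adjusted over the 9 members (0.103 and 0.222). Leaving out the 2 libraries farthest from the median of the markers gave r = 0.73, and deviations from group means gave r = 0.81. Those left out were 9M_UT replicate 1 and 6M_POW_LD replicate 6, both with high marker sums. The 2 libraries with the lowest sums stayed in, and r without them was not worked out. For the other 8 members r lay between -0.23 and 0.16 over the 15 libraries. The highest of these 8 was Idh3b on the other measures too, at 0.48 without the 2 farthest libraries and 0.50 in deviations from group means. The relation was looked for after the values had been seen, and whether slow fibre content set the Idh2 level was not tested further.

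**Figure D4:**
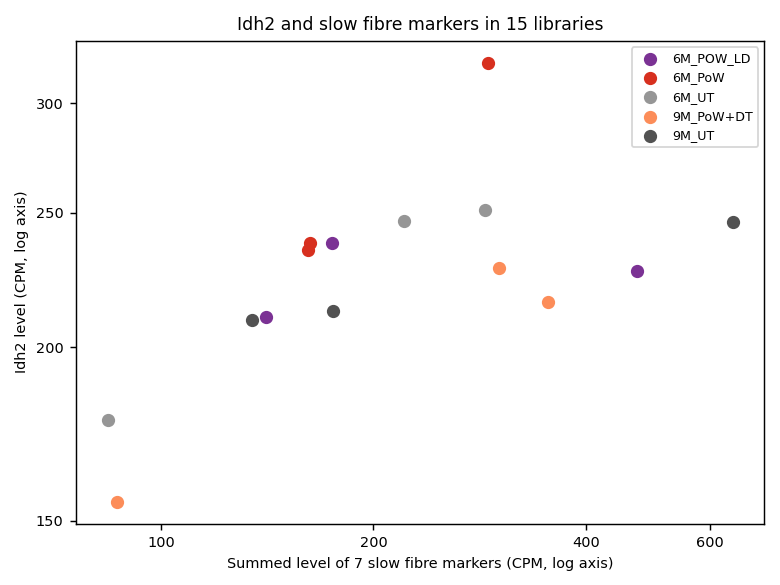
Idh2 level against the summed level of 7 slow fibre markers, both in CPM on log axes, 1 point per library coloured by group. The 2 libraries with the lowest marker sums, at 84.0 and 86.5 CPM, have the lowest Idh2, and 6M_PoW replicate 1 has the highest Idh2 at 321 CPM.

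A list of other subunits of the cycle held 9 genes, among them subunits of succinyl-CoA synthetase and of succinate dehydrogenase. None of the 9 was called in any of the 7 comparisons by edgeR. After training 2 passed an unadjusted p under 0.05, which 9.75% of all genes did. They were Sdhb at a log2 fold change of 0.22 ± 0.09 and Suclg2 at 0.19 ± 0.08 (edgeR adjusted p = 0.443 and 0.479). In 6M_POW_LD against 6M_UT 2 of the 9 passed it, beside 20% of all genes in either direction. These were Suclg1 at 0.20 ± 0.07 and Dlst at 0.17 ± 0.07 (edgeR adjusted p = 0.0989 and 0.203). All 9 lay above 0 in 9M_PoW+DT against 9M_UT, with a median of 0.07, and all 9 lay below 0 in 9M_UT against 6M_UT, with a median of -0.08. These comparisons share the 9M_UT libraries, whose summed level for the list was 3498 to 3591 CPM, while 6M_UT held 3708 to 3872 CPM. Sdhd was nearest to passing in both, at 0.26 ± 0.09 in detrained against untrained muscle and -0.24 ± 0.09 with age (edgeR adjusted p = 0.646 and 0.624).

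Pyruvate enters the cycle through the pyruvate carrier and the pyruvate dehydrogenase complex, and 0 of 14 genes of this entry were called in any comparison by edgeR. The complex's Pdha1 subunit stood highest in trained muscle, at 813 ± 51.5 CPM in 6M_PoW, against 701 ± 7.35 CPM in 6M_UT (SD, n = 3 each). Its log2 fold change was 0.21 ± 0.06 for 6M_PoW against 6M_UT (edgeR adjusted p = 0.275) and -0.30 ± 0.06 for 9M_PoW+DT against 6M_PoW (edgeR adjusted p = 0.0707). DESeq2 called the second of these, with an adjusted p of 0.00406.

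The genes for side reactions were the longest list near the cycle, at 16 genes. In 9M_PoW+DT against 6M_PoW edgeR called 1 of them, beside 0.295% of all genes tested. Got2, the mitochondrial aspartate aminotransferase, which links oxaloacetate and 2-oxoglutarate to amino acids, was lower in detrained than in trained muscle at 385 ± 28.1 CPM in 9M_PoW+DT and 529 ± 27.4 CPM in 6M_PoW (SD, n = 3 each), a log2 fold change of -0.46 ± 0.07 (edgeR adjusted p = 0.0174). That call ended without 6M_PoW replicate 1 or 2 or 9M_PoW+DT replicate 3 (edgeR adjusted p = 0.0808, 0.0741 and 0.0751). Against 6M_UT, at 410.4 ± 17.4 CPM, trained Got2 was 0.37 ± 0.07 higher on the log2 scale and missed the threshold in edgeR (adjusted p = 0.118), while DESeq2 called it (adjusted p = 0.00374).

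In the LD libraries 3 of the 16 side-reaction genes were called against 6M_UT, beside 4.99% of all genes tested. Nothing is read about the list from 3 calls. Dhtkd1, which acts on 2-oxoadipate in lysine breakdown, stood at 2.81 ± 0.542 CPM in 6M_POW_LD and 5.59 ± 0.41 CPM in 6M_UT, and Acss1, the mitochondrial acetyl-CoA synthetase, at 21.8 ± 3.50 CPM in 6M_POW_LD and 56.1 ± 12.8 CPM in 6M_UT (SD, n = 3 each). They were lower by log2 fold changes of -0.99 ± 0.23 and -1.37 ± 0.31 (edgeR adjusted p = 0.0185 and 0.0340). Glud1, glutamate dehydrogenase, was higher at 0.23 ± 0.06 (edgeR adjusted p = 0.0441). The Glud1 call held in 4 of 13 alternatives: it ended in every fit that left out 1 library, with DESeq2 size factors, with no filter on low counts and in a fit of the compared groups alone. In the leave-out fits Acss1 lost its call without 6M_UT replicate 1 or 3 or any LD library, and Dhtkd1 without 6M_UT replicate 1 or 6M_POW_LD replicate 4 or 6, with edgeR adjusted p up to 0.132 for Glud1, 0.137 for Acss1 and 0.0776 for Dhtkd1. In 6M_POW_LD against 6M_PoW, where 2.4% of all genes were called, 1 of 6 tested carriers of cycle metabolites was called. This was the aspartate-glutamate carrier Slc25a12, at 0.27 ± 0.07 (edgeR adjusted p = 0.0426), and that call held in 5 of 13 alternatives. It ended without 6M_PoW replicate 1 or 3 or any LD library (edgeR adjusted p up to 0.182), with upper-quartile scaling, with no filter on low counts and in a fit of the compared groups alone.

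None of the 14 regulators of oxidative genes was called by edgeR in any comparison. Esrra, the oestrogen-related receptor alpha that drives many mitochondrial genes, stood at 101 ± 3.89 CPM in 6M_PoW and 120.2 ± 4.06 CPM in 6M_UT, and at 118 ± 10.3 CPM in 9M_PoW+DT and 103 ± 4.30 CPM in 9M_UT (SD, n = 3 each). The difference of its effects was 0.44 ± 0.11 on the log2 scale, which edgeR did not call (adjusted p = 0.222) and DESeq2 did (adjusted p = 0.0357). Tfam, a factor that packs and transcribes mitochondrial DNA, was 0.32 ± 0.09 higher in 6M_POW_LD than in 6M_UT on the log2 scale (edgeR adjusted p = 0.0540), and DESeq2 and limma-voom called it (adjusted p = 0.0267 and 0.0411).

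The genes whose levels ran closest to the mean of the members over the 15 libraries included respiratory chain and ATP synthase genes. Their share among all genes ranked was not worked out. Among 8 genes with the highest Pearson's r, out of 5617 candidates, were Atp5pb and Atp5md of ATP synthase, Uqcrc1 and Uqcrc2 of complex III and Ndufa10 of complex I, besides Dld, the cytosolic malate dehydrogenase Mdh1 and the vesicle adaptor subunit Ap3m1, at r = 0.85 to 0.89. These genes share libraries and scaling with the members, and the values describe the ranking only. In deviations from group means the 8 closest were Gas6, Ap3m1, Sdhc, Slc25a3, Atp5c1, Atp5pb, Ndufa10 and Sap18, at r = 0.84 to 0.88. Among the members, Fh1 ran closest to the mean of the other 8, at r = 0.87, and Ogdh least, at r = 0.17. In deviations from group means Fh1 was again the closest, at 0.86, and Idh3b the least close, at 0.37, with Ogdh at 0.61.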

How the data were processed

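RNA of 15 plantaris libraries was analysed from 1 table of expected counts per gene that the authors deposited. Per the submitters' processing notes, STAR 2.7.3a, DESeq2, Partek and mm10 were used, with no role named; no source used here names the counting tool, a strand setting or an annotation. Values were rounded before fitting. The filterByExpr filter left 14919 genes for the 12 libraries without LD and 15181 for all 15, with TMM scaling, fitted with 1 mean per group by edgeR 4.0.16 (quasi-likelihood, robust; R 4.3.3). P-values were adjusted by Benjamini-Hochberg over all genes of a comparison and called under 0.05. The 2 LD comparisons used all 15 libraries. SE and 95% intervals come from the quasi-likelihood fit. Levels are CPM on effective totals of 18865037 to 27688826 counts before scaling, and intervals cover the spread between libraries only. DESeq2 1.42.0 and limma 3.58.1 were alternatives. No libraries were near-identical: chi-square per degree of freedom between replicates was 10.1 to 48.4. Calls were tested on simulated counts. The genes named outside the members were called, or were among the 3 with the smallest p of their list. The members and lists were chosen with earlier results of these data known. Gene ends are the deposited stop less 1 (mm10). Ucp1 and Slc25a21 were not analysed here. Some items are not reported here.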

Additional observations from a re-analysis of the deposited data

How the results depend on the processing

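Counts of called members were the same under all alternatives except for Cs in 6M_POW_LD against 6M_UT, where the count ranged from 0 to 1 with one library left out. Of 963 member values under alternatives, 83 changed sign, and all but 5 of these were within 1 SE of 0 both ways. The 5 were, with 6M_POW_LD moved into the untrained group, Cs after training (-0.061), and, with the 9-month groups exchanged as the treatment field has them, Idh3a and Idh3b in detraining (-0.082 and -0.13) and in the difference (-0.011 and -0.15). That exchange also turned Sdhd in detraining (-0.26), the difference (-0.14) and age (0.023), and Esrra and Pdhx in detraining (-0.19 and -0.20). With one library left out, the median of the 9 ranged from 0.0060 to 0.091 in training, -0.024 to 0.031 in detraining, -0.085 to 0.023 in the difference, -0.060 to -0.024 with age, -0.10 to -0.024 in 9M_PoW+DT against 6M_PoW, 0.0023 to 0.049 in 6M_POW_LD against 6M_UT, and -0.063 to 0.076 in 6M_POW_LD against 6M_PoW. With the replicate number as a block, the training median was 0.030, the detraining median -0.0048 and that of the difference -0.036, with 0 members called in each; same-numbered libraries share only a number, with correlations of deviations of -0.12 to 0.21. Counts over the whole table moved with the test: DESeq2 called 112 in training, 30 in detraining and 111 in the difference, and limma-voom called 0 in each, beside 0, 3 and 4 in edgeR. In 9M_UT against 6M_UT DESeq2 called 58 and limma-voom 0 genes beside 2, in 9M_PoW+DT against 6M_PoW 348 and 24 beside 44, in 6M_POW_LD against 6M_UT 1190 and 809 beside 757, and in 6M_POW_LD against 6M_PoW 675 and 380 beside 365. With one library left out, edgeR called 0 to 10 genes in training, 1 to 4 in detraining, 0 to 26 in the difference, 1 to 5 with age, 0 to 34 in 9M_PoW+DT against 6M_PoW, 288 to 707 in 6M_POW_LD against 6M_UT and 157 to 231 in 6M_POW_LD against 6M_PoW. With 3 libraries a group, the 95% interval of a training effect was -8.66% to 9.76% for Sucla2 and -11.1% to 55.6% for Idh2.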

Other observations

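The mRNA ratios between subunits of the NAD-dependent isocitrate dehydrogenase stayed within narrow ranges in all 15 libraries. Idh3a, Idh3b and Idh3g each varied little on their own. Ratios between other members were not worked out, so the closeness is not read as particular to these subunits. Per kilobase of merged exon, Idh3a stood at 1.06 to 1.24 times Idh3b (median 1.17) and at 1.14 to 1.34 times Idh3g (median 1.25), and Idh3b at 0.992 to 1.18 times Idh3g. With the principal transcript lengths the medians were 1.17, 1.30 and 1.14. These are levels of mRNA, and the lengths of the transcripts present in these libraries were not measured.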
